A study of Prunus dulcis and Malus domestica and Olea europaea with 8 samples.

Results

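The walnut library is 1 of 8 small RNA libraries made from plant-based foods, each from the edible portion of 1 product. It was chosen by its food label alone, and the 7 libraries of almond, apple, olive, orange, pear, spinach and tomato are the foods it is set against. The study sequenced foods to find microRNAs (miRNAs) that a diet can carry. Almond has a library here but is not among the sequenced foods that the study lists. Reads of every food were counted on the miRNA genes annotated in peach, Prunus persica. Of the 209 annotated genes, 68 had at least 1 count in walnut, and these fell in 31 of 88 families, a family being the genes that share the number after MIR.

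The walnut sample came from Juglans regia, and 0.5 g of it went into the extraction according to the sample labels. Almond (Prunus dulcis) was extracted from 0.5 g as well. Apple (Malus domestica), olive (Olea europaea), orange (Citrus sinensis), pear (Pyrus communis), spinach (Spinacia oleracea) and tomato (Solanum lycopersicum) were extracted from 0.1 g each. The methods of the study give another mass for walnut, so the mass is uncertain. No food was treated, and none had a replicate library, so species, product, extraction and sequencing cannot be told apart in any difference given here. The table holds miRNA genes only, so the labelled tissue could not be checked against marker genes.

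Plant miRNAs are short RNAs cut from hairpin precursors by a Dicer-like enzyme and loaded into Argonaute proteins, which then cut or silence messenger RNAs that pair with them almost along their whole length. Many families are shared by most flowering plants, and a large part of their known targets are transcription factors that set the growth of seeds, leaves and fruits. The roles given here come from work in model plants, mainly Arabidopsis thaliana, and are background to the counts.

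The study took miR482f and miR482c-5p forward, and they are the miRNAs of these files with a sequence. They are shown because both of their genes were among the counted walnut genes. Capitals mark the seed, bases 2 to 8 from the 5′ end.
miR482f: uCUUUCCUacuccacccauucc
miR482c-5p: gGAAUGGGcuguuugggaug
The first is 22 bases long and the second 20, and their seeds differ. The MIR482f gene lies on peach chromosome G1, positions 30625526 to 30625670 of NCBIv2, and MIR482c lies on G3, positions 16316472 to 16316592. Counts are per gene and do not separate the arms of a hairpin. MIR482f held 2.15% of the walnut counts and MIR482c held 6.40%, and by share walnut had place 3 of the 8 foods for each. The study reports normalized reads, which are another scale. On these, walnut was highest for both among the foods it lists, and almond is not listed. The study detected miR482c-5p in walnut by quantitative PCR too, but miR482f there by sequencing alone. It asks for caution with sequencing hits that this second method did not find.

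Walnut was the shallowest of the 8 libraries, with 39249 counts, against 54924 in spinach, the next lowest, and 212021 in apple, the highest. A single count was worth 0.00255% of the walnut library, and 3 counts, taken as the limit that a count of 0 allows, were worth 0.00764%. All values below are shares of a library's total count on miRNA genes. Intervals are exact 95% Clopper-Pearson intervals for shares and exact conditional binomial intervals for ratios. They cover counting error only, since copies made by PCR were counted as separate reads and no food had a replicate.

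Few genes were counted in walnut, but its counts were no more concentrated than those of most foods. In all, 12 genes had 1 count, 34 genes had 1 to 9 counts and held 105 counts together, and 34 genes had at least 10 counts. At the depth of walnut, 68 genes were counted in walnut, against an expected 116.7 in almond, 90.7 in olive, 87.4 in orange, 87.1 in tomato, 86.4 in pear, 66.1 in apple and 64.5 in spinach. Walnut thus lay with apple and spinach at the low end. It took 2 genes to reach 50% of the walnut counts, 12 to reach 90% and 25 to reach 99%. In the other foods, 90% took from 5 genes in apple to 12 in orange and 15 in almond. The effective number of genes (the exponential of the Shannon entropy of the shares) was 9.35 in walnut. Only olive (10.7) and almond (17.8) were higher, and apple was lowest (5.61). No gene was counted in walnut alone, and 19 genes were counted in all 8 foods.

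Set apart from the 3 genes with the most counts (MIR167d, MIR159 ENSRNA049996936 and MIR482c) and from the rest of the miR482 family, 12625 walnut counts remained, or 32.2% of the library, on 64 genes. Of these genes, 30 had at least 10 counts. Most of the walnut profile described here is in these 30 genes.

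**Figure D1:**
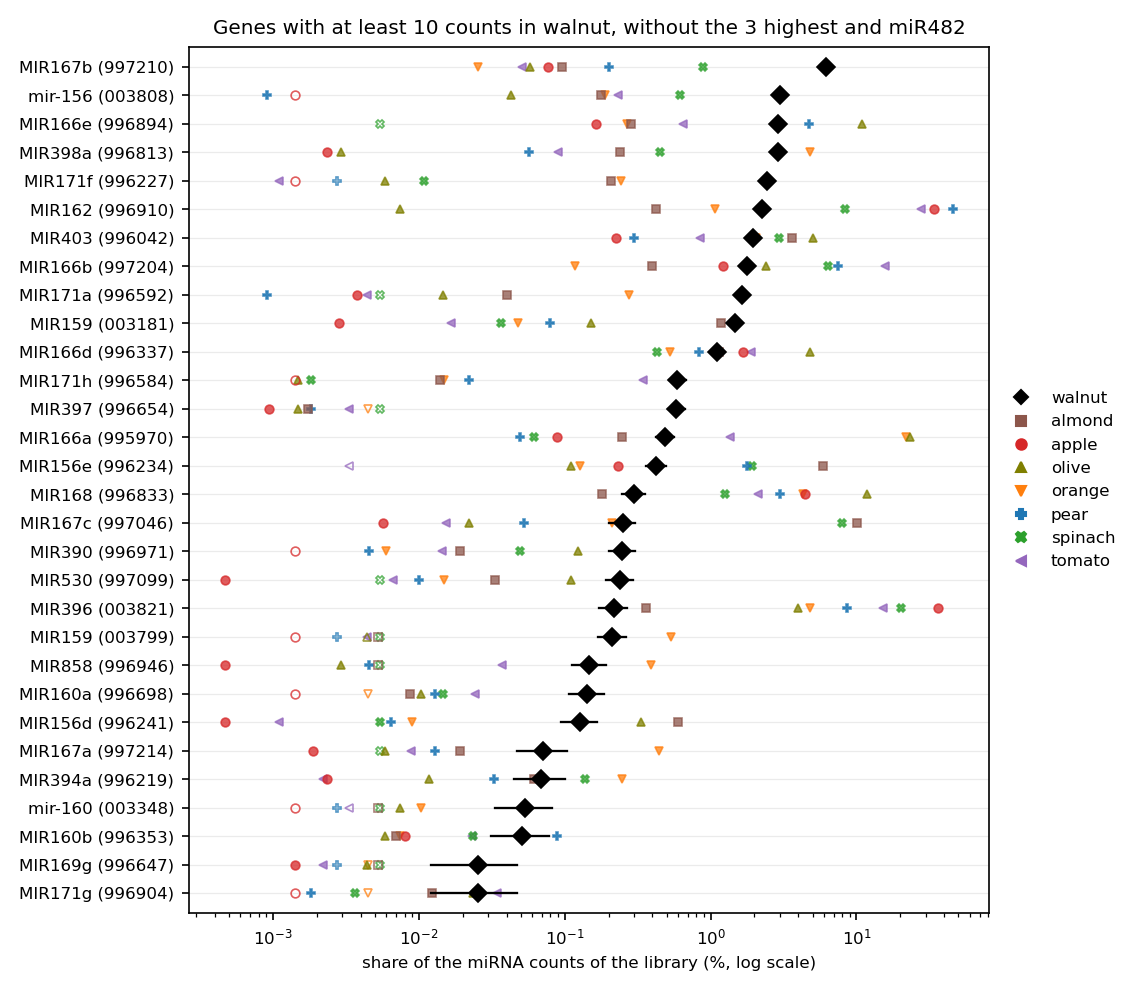
Share of each library's miRNA counts (x axis, percent, log scale) for the 30 genes with at least 10 walnut counts outside the 3 highest and miR482, in order of the walnut share; labels give the last 6 digits of the gene ID. Black diamonds with 95% counting intervals are walnut, and the other marks are the 7 other foods, open and set at the value of 3 counts where a gene had 0 counts; MIR167b, at 6.204% in walnut and at most 0.890% elsewhere, heads the list.

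To state which genes set walnut apart, a gene with at least 10 walnut counts was called above the other foods when its walnut share was at least 2 times the highest of the 7 other shares, a count of 0 being set to 3. Of 34 genes, 10 were called (29.4%). The same rule applied to each other food in turn called 6.06% of the genes tested in spinach to 43.3% in almond, so the walnut share lay within that range. The 10 genes held 46.8% of the walnut counts (18363 counts), against 7.91% of the almond counts and 0.284% (pear) to 1.55% (spinach) of the counts in the other 6 foods. The rule that chose the 10 genes fixes the direction of this difference.

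Auxin miRNAs took the largest part of the walnut library. The group was made of miR167 and miR160, which target auxin response factors, miR390, which starts the trans-acting small RNAs of TAS3 that act on other auxin response factors, and miR393, which targets auxin receptors. It held 39.5% of the walnut counts (38.98 to 39.95%), against 0.186% in tomato, the lowest, a median of 1.43% (olive) and 17.7% in almond, the highest. Nearly all of it was miR167, with 39.0% of the walnut counts, against a median of 0.323% (pear) and 17.6% in almond. This order with almond turned on the deposited normalized reads (ratio 0.417) and when each library's 3 highest genes were dropped (0.685). Under DESeq2 median ratio scaling the miR167 family stayed above almond, but by less than 2-fold.

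MIR167d (ENSRNA049995965, G1:1563673-1563777, plus strand) accounted for 12733 of the miR167 counts in walnut, 32.4% of the library. Its share in the other foods was 0.0232% in tomato, the lowest, 0.118% in olive, the median, and 7.35% in almond, the highest, so that walnut stood 4.41-fold above almond (4.26 to 4.57). MIR167b (ENSRNA049997210, G8:20759419-20759555, minus strand) had 2435 counts in walnut, or 6.204% (n = 1 library). Its share was 0.0254% in orange, 0.0764% in apple (median) and 0.890% in spinach, and walnut stood 6.97-fold above spinach (6.32 to 7.69). All 7 other foods lay below walnut for both genes, although on the scale of the deposited normalized reads almond was above walnut for MIR167d (ratio 0.831).

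The other miR167 copies were above most foods in walnut but not highest there. MIR167c had 98 counts in walnut (0.250%), at place 3 of 8. It was below 10.1% in almond and 7.95% in spinach and above a median of 0.0523% (pear). MIR167a, which lies 2156 bp from MIR167b on the same strand, had 28 counts in walnut (0.0713%), at place 2 of 8. It was below 0.440% in orange and above a median of 0.00883% (tomato). Within the family, MIR167d took 83.3% of the walnut reads, MIR167b 15.9%, MIR167c 0.641%. In almond, the food with the next highest miR167 share, MIR167c took 57.6%, MIR167d 41.8% and MIR167b 0.549%. In spinach, the third food in miR167, MIR167c took 89.7%. The miR167 reads of walnut were thus counted mainly on MIR167d and MIR167b and those of spinach mainly on MIR167c, while MIR167d led the family in apple and olive too, at 73.1% and 58.0% of far fewer counts (661 and 138). Copies of a family can share reads, and the part of the alignment to peach in this split was not tested.

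Of the rarer auxin families, miR160 was highest in walnut and miR390 and miR393 were not. MIR160a (ENSRNA049996698) had 56 counts in walnut, or 0.143%, against 0 counts in apple and orange, a median of 0.0104% and 0.0243% in tomato, a ratio of 5.88 (3.53 to 10.1). Its relative mir-160 ENSRNA050003348 had 21 counts in walnut, against 7 in orange, 5 in olive and 0 in the other 5 foods, and the ratio to orange was 5.12 with a wide interval (2.10 to 14.3). MIR160b, with 20 walnut counts (0.0510%), was second to pear (0.0890%) and was called above only with pear left out. Summed, miR160 reached 0.247% in walnut and 0.102% in pear, the next food, 2.43-fold (1.83 to 3.22), a ratio that was 1.21 on the DESeq2 median ratio scale and 1.29 with poscounts, under the rule of 2.

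The miR390 family in walnut was MIR390 ENSRNA049996971 alone, with 97 counts (0.247%), against a median of 0.0143% (tomato) and 0.124% in olive, a ratio of 1.99 that fell just short of the rule and passed it with olive left out. The second copy, MIR390 ENSRNA050003783, had 0 counts in walnut, against 1638 in orange, where it was 99.8% of the family. The family as a whole had place 3 in walnut, after orange (2.45%) and olive (0.384%). The receptor-directed miR393 was near absent, with 2 walnut counts, as it was in almond (0 counts) and tomato (3 counts). Its copy MIR393b had 0 counts in walnut and in almond, against 554 in olive and 478 in apple.

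The miR171 family, which targets GRAS transcription factors of the scarecrow-like kind that keep meristems active, was the other group that stood out. It held 4.73% of the walnut counts (4.52 to 4.95%), against 0.00755% in apple, a median of 0.0961% (olive) and 0.764% in orange, and walnut stood 6.19-fold above orange (5.61 to 6.84). MIR171f (ENSRNA049996227) had 962 counts in walnut, or 2.45%, against 0 counts in apple and pear, a median of 0.00592% (olive) and 0.245% in orange, a ratio of 10.02 (8.48 to 11.9). MIR171a (ENSRNA049996592) had 645 counts in walnut, or 1.64%, against 0 counts in spinach, a median of 0.00441% (tomato) and 0.276% in orange, a ratio of 5.95 (5.05 to 7.05). MIR171a lies opposite MIR171e, which had 2 counts in walnut; the authors counted with strand, so reads of the 2 strands were kept apart.

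The remaining members of the family were lower. MIR171h had 233 walnut counts, or 0.594%, above 0.342% in tomato, and it passed the rule with tomato left out. MIR171g had 10 counts in walnut (0.0255%), below 0.0342% in tomato. MIR171d had 0 counts in walnut and at least 1 count in each of the 7 other foods. It had 202 in almond and 63 in pear, where it led the family (55.8% and 65.6%), but 1 in spinach and 2 in apple. MIR171f led miR171 in walnut with 51.8% of the family counts and led it in none of the other foods, although orange came near in makeup with 32.0% MIR171f and 36.1% MIR171a.

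**Figure D2:**
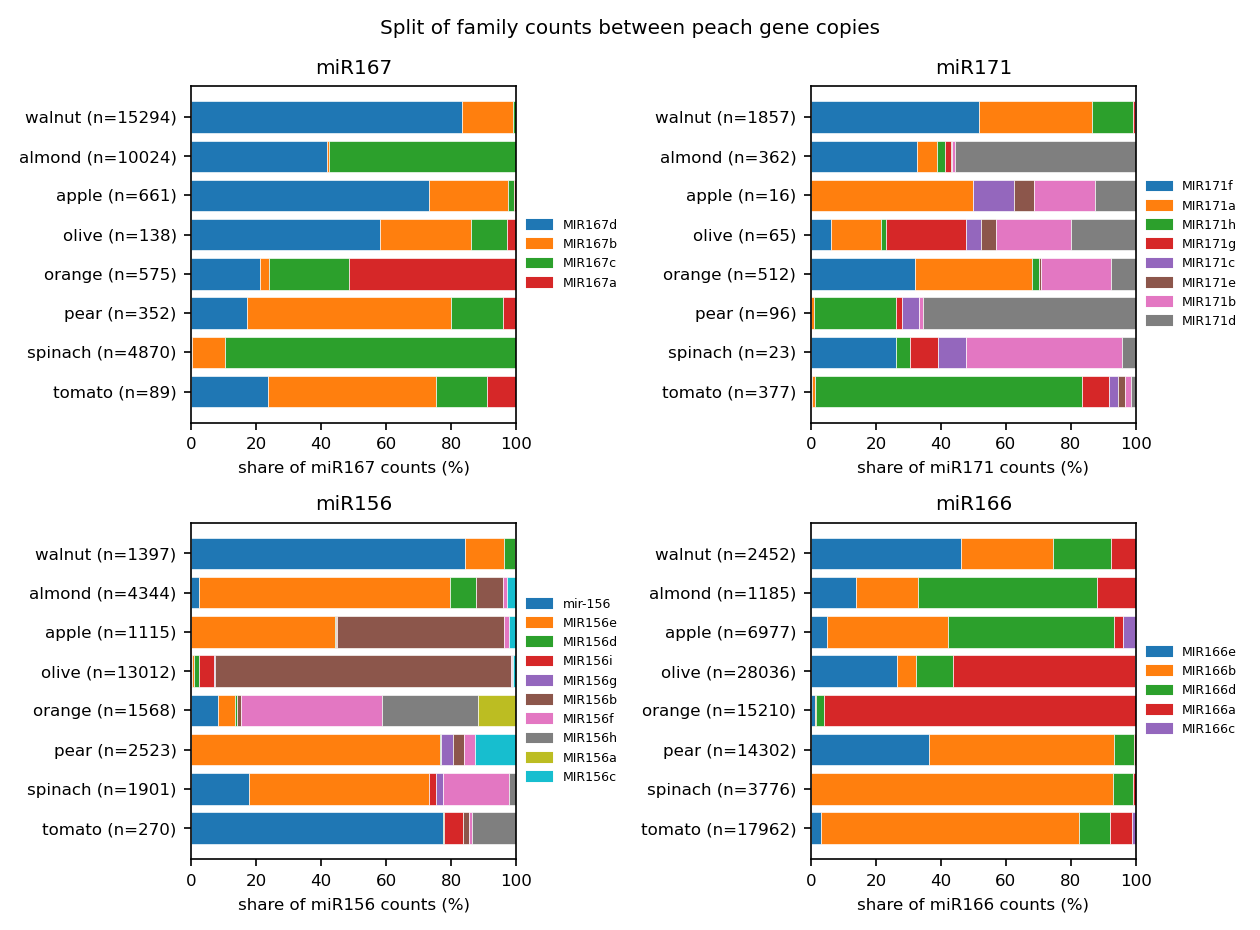
Split of the counts of miR167, miR171, miR156 and miR166 between their peach gene copies (x axis, percent of the family counts), 1 bar per food with walnut at the top; n is the number of family counts and colours are gene copies in the order of the walnut share. MIR167d (83.3%), MIR171f (51.8%), mir-156 (84.3%) and MIR166e (46.3%) led in walnut.

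The SPL group held 3.58% of the walnut counts, against a median of 2.55% (pear) and 21.0% in almond, which put walnut at place 4 of the 8 foods. It is made of miR156, which represses SPL transcription factors and keeps plants in the juvenile phase, and the related miR535. Its level was thus ordinary, and most of it was on 1 copy. The gene mir-156 ENSRNA050003808 had 1178 counts in walnut, or 3.001%, against 0 counts in apple, a median of 0.177% (almond) and 0.614% in spinach, a ratio of 4.89 (4.33 to 5.54). It made up 84.3% of the miR156 counts in walnut and led the family elsewhere only in tomato (77.4%). Most miR156 counts fell on 1 copy in olive (MIR156b, 91.1%), almond (MIR156e, 77.4%) and pear (MIR156e, 76.5%) too. The leading copy took less in spinach (55.4%), apple (51.2%) and orange (43.4%).

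MIR156e, which led the family in almond, pear and spinach, had 0.423% of the walnut counts, at place 4 of 8, against 5.90% in almond. MIR156d had 50 walnut counts (0.127%), at place 3 of 8. It was below 0.598% in almond and 0.333% in olive and above a median of 0.00642% (pear). Copies MIR156f, MIR156h and MIR156c had 0 counts in walnut. Of these, MIR156f was counted in all 7 other foods, with 681 counts in orange and 383 in spinach but 2 in tomato. MIR535b had 8 counts in walnut (0.0204%), against 6496 in almond (11.4%).

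Copper miRNAs made up 3.47% of the walnut counts, second to orange (5.13%), with a median of 0.457% (spinach) in the other foods. Plants make these miRNAs when copper is short, and they target messenger RNAs of copper proteins. MIR397 (ENSRNA049996654), directed at laccases, the copper enzymes that couple lignin units, had the largest ratio of the 10 called genes. It had 229 counts in walnut, or 0.583% (0.511 to 0.664%), against 3 counts in tomato, 2 each in apple and pear, 1 each in almond and olive and 0 in orange and spinach. The ratio to tomato was 176, with a counting interval of 59.6 to 861, and it was at least 107 when the zeros were set to 3 counts, as the rule does. Walnut and the other foods did not come near each other for this gene.

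MIR398a (ENSRNA049996813), directed at copper/zinc superoxide dismutases, had 1134 walnut counts (2.89%). It was second to orange (4.78%), with a median of 0.0905% (tomato) in the other foods, and was called above only with orange left out. It was the only miR398 copy counted in walnut, whereas MIR398b carried 89.0% of the family in pear and MIR398 ENSRNA050003695 carried 97.4% in apple.

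A few genes outside these groups were also called above. MIR530 ENSRNA049997099 had 94 counts in walnut, or 0.239%, against 0 counts in spinach, a median of 0.0101% (pear) and 0.111% in olive, a ratio of 2.16 (1.58 to 2.97) that was 1.11 under TMM and 1.35 to 1.39 on 3 other scales, under the rule of 2. MIR530 ENSRNA050003493, the copy that carried 86.9% of the family in apple, had 2 counts in walnut, and the family sum of walnut (0.250%) was below that of apple (0.321%). MIR169g, of the family that targets NF-YA subunits of a CCAAT-binding factor, had 10 counts in walnut, against 3 each in apple and olive, 2 in tomato and 0 in the other 4 foods. Its ratio to olive was 5.74 with an interval of 1.48 to 32.5, and it was at least 4.66 with zeros set to 3 counts.

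MIR159, which targets MYB factors of the gibberellin response, was among the large families of every food. The family held 28.5% of the walnut counts, at place 3 after orange (44.7%) and spinach (38.2%), with a median of 14.6% (tomato). MIR159 ENSRNA049996936 led it in all 8 foods. The copy MIR159 ENSRNA050003181 had 579 walnut counts, or 1.48%, close to 1.19% in almond (1.24-fold) and above 0.151% in olive, the third food. MIR159 ENSRNA050003799 had 83 walnut counts (0.211%), below 0.533% in orange, and 4 counts in tomato were its only others. MIR159 ENSRNA050003605 had 0 counts in walnut, against 1213 in pear.

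MYB factors of phenylpropanoid genes are the targets of miR858 and miR828. MIR858 had 58 counts in walnut, or 0.148%, second to orange (0.391%) and above 0.0375% in tomato, with at most 5 counts in any of the remaining 5 foods. MIR858 was called above only with orange left out.

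HD-ZIP III factors, which set leaf polarity and vascular patterning, are the targets of miR166. The family held 6.25% of the walnut counts, at place 6 of 8, against 2.08% in almond, the lowest, a median of 13.1% (pear) and 41.5% in olive. Its makeup was more even in walnut than in most foods: MIR166e 46.3%, MIR166b 28.3%, MIR166d 17.6% and MIR166a 7.79%. MIR166e led the family in walnut only. In orange, by contrast, MIR166a took 96.0%, and in spinach MIR166b took 92.9%. MIR166e had 2.89% of the walnut counts, below 10.96% in olive and 4.75% in pear. For MIR166b (1.77%) and MIR166d (1.101%) walnut had place 5 of the 8 foods, and for MIR166a (0.487%) place 4.

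Genes low in walnut were sought with the mirror rule: at least 10 counts in each of the 7 other foods and a walnut share of at most 1/2 of the lowest other share. Applied to each other food in turn, this rule called 0 genes (almond and pear) to 2 (apple and orange). Of 11 genes, 1 was called in walnut (9.09%). It was MIR396b (ENSRNA049997141), with 4 counts in walnut, or 0.0102%, against 0.0877% in almond, the lowest, 0.482% in pear (median) and 5.56% in spinach. The ratio to almond was 0.116 (0.0305 to 0.316). On the deposited normalized reads the ratio to the lowest other food was 0.971, which ends the call.

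Both counted copies of miR396, the family that targets growth-regulating factors, were lowest in walnut. MIR396 ENSRNA050003821 had 85 counts in walnut, or 0.217%, against 0.361% in almond, 8.63% in pear (median) and 36.4% in apple. Its ratio to almond was 0.599 (0.460 to 0.775), so it was not called, and with almond left out it was. Summed over copies, miR396 held 0.227% of the walnut counts, against 0.475% in almond, a median of 9.12% (pear) and 36.6% in apple. Applied to families of each other food, the mirror rule called 0 (orange and pear) to 2 (apple and olive). In walnut the miR396 family was called below, as 1 of 8 families tested (12.5%), with a ratio to almond of 0.477 (0.371 to 0.608). This call was lost under TMM and under DESeq2 poscounts scaling and when each library's 3 highest genes were dropped, and the ratio to the lowest other food was then above 1 under TMM (1.32) and after that drop (1.03).

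The small RNA machinery regulates itself through miR162 (DCL1), miR168 (AGO1) and miR403 (AGO2). Together these held 4.51% of the walnut counts, at place 7 of 8, against 4.24% in almond, the lowest, a median of 16.8% (olive) and 49.0% in pear. MIR168 had 117 walnut counts, or 0.298%, above 0.181% in almond and below the other foods, which ran from 1.27% in spinach through a median of 2.98% (pear) to 11.7% in olive. Walnut and almond were thus the low pair for MIR168 and for miR396, and MIR168 was called below with almond left out. MIR162 had 2.25% of the walnut counts, against 45.7% in pear, 34.1% in apple and 0.00739% in olive. MIR403, at 1.96% in walnut, was close to its median of 2.04% (orange).

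Several families that were prominent in 1 or more other foods had few counts in walnut. The NAC-directed miR164, which helps to set organ boundaries, had 12 walnut counts (0.0306%), against 10.7% of the counts in tomato and 4.05% in orange, while almond (0.0175%), olive (0.0104%) and spinach (0.0455%) were also low. The AP2-directed miR172, a promoter of the adult phase, had 8 walnut counts (0.0204%), against 0.0140% in almond, the lowest, a median of 0.0349% (pear) and 3.06% in spinach, and the interval of its ratio to the median, 0.236 to 1.27, spanned 1. MIR394a, directed at an F-box protein of stem cell control, had 27 walnut counts (0.0688%) and had place 3 of 8, after orange and spinach. The nutrient miRNAs miR395, miR399, miR827 and miR2111, which act on sulfate and phosphate genes, had 23 walnut counts together on 5 of 40 genes (0.0586%), against 0.0528% in spinach and 2.09% in orange.

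At 0 in walnut were 12 genes that had at least 10 counts in 4 or more other foods, among them MIR7122a with 6821 counts in almond and 1644 in pear, MIR164b with 749 in orange, MIR399b with 342 in apple and MIR166c with 275 in apple. Each of these named genes was also at 0 in spinach, MIR166c also in almond, and MIR164b also in olive and pear. The same count of genes was not made for the other foods, nor were all genes that met this minimum counted. As walnut was the shallowest library, the 12 cannot be read as particular to walnut. MIR394b, MIR171d, MIR156f and MIR159 ENSRNA050003608 were at 0 in walnut and counted in all 7 other foods. Some of those counts were small. MIR394b, MIR171d and MIR159 ENSRNA050003608 had 1 count each in spinach, and MIR156f had 2 in tomato. Walnut cannot be told from those foods for these genes. With 39249 counts, each of these zeros allows a walnut share of up to 0.00764% by that limit of 3 counts. Families numbered 6000 or above, which are mostly found in few plant lineages, had 8 walnut counts on 2 of 65 genes, 6 of them on MIR6279 and 2 on MIR8126, or 0.0204% together. Spinach was lower (0.0164%), the median was 0.0621% (olive) and almond was highest (14.96%). Genes of any food that peach lacks could not be counted.

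**Figure D3:**
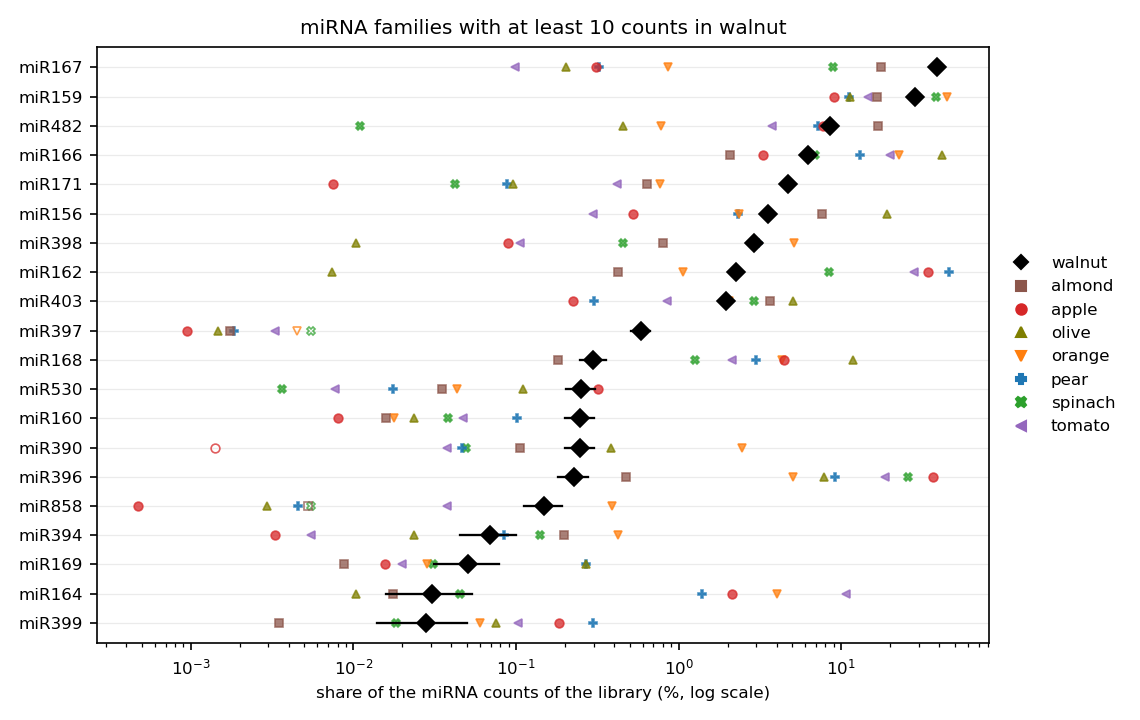
Share of each library's miRNA counts (x axis, percent, log scale) for the 20 families with at least 10 walnut counts, in order of the walnut share. Black diamonds with 95% counting intervals are walnut and the other marks are the 7 other foods, open at the value of 3 counts where a family had 0 counts; miR167, miR171, miR397 and miR160 lie to the right of every other food, and miR396 lies to the left.

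By family, 4 of 20 were called above (20%): miR167, miR171, miR397 and miR160. The same rule called 4.55% of the families tested in tomato to 48.6% in almond, so the walnut share lay within that range. The overlap of the walnut family profile with each other food, the sum over families of the smaller of the 2 shares, was 53.0% with almond, 52.7% with spinach, 46.7% with orange, 33.7% with pear, 29.4% with tomato, 25.0% with olive and 24.4% with apple. Of the almond overlap, 17.6 percentage points came from miR167 and 16.7 from miR159, whereas 28.5 of the spinach overlap came from miR159. By single genes the order changed, with 37.4% for orange, 36.8% for spinach and 30.6% for almond. With each library's 3 highest genes dropped, spinach came first by family (57.5%) and orange by gene (29.9%). No single food was therefore the nearest to walnut on every measure.

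**Figure D4:**
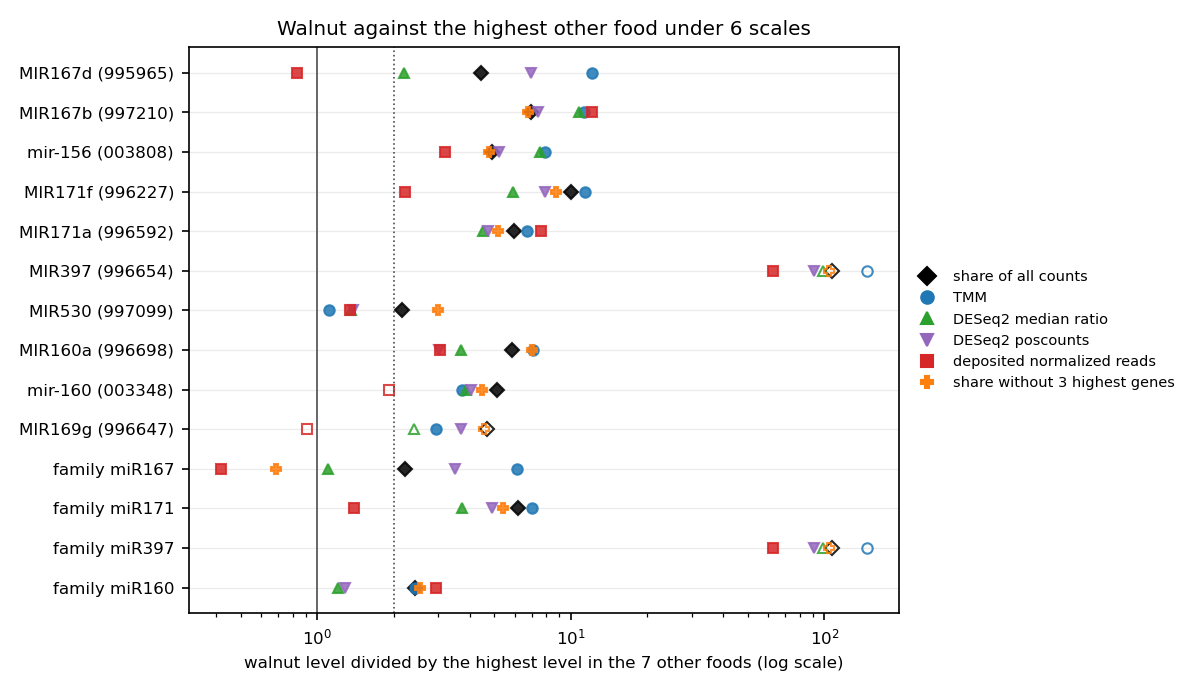
Walnut level divided by the highest level in the 7 other foods (x axis, log scale) for the 10 genes and 4 families called above, under 6 scales; the solid line marks equal levels, the dotted line the ratio of 2 used for a call, and MIR167d has no value without the 3 highest genes, being one of them. Open marks are lower bounds, where a food at 0 counts, set to 3, was the highest; MIR397 stays at 62.6 or above, while MIR167d and the miR167 family fall under 1 on the scale of the deposited normalized reads (0.831 and 0.417).

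Shares depend on what else a library holds, so each call was repeated on other scales. MIR167b, mir-156 ENSRNA050003808, MIR171f, MIR171a, MIR397 and MIR160a kept a ratio of at least 2 to the highest other food on all of them, the lowest being 2.23 for MIR171f on the deposited normalized reads. On the deposited normalized reads MIR167d had a ratio of 0.831 to almond. On that scale 3 counts of almond, which had 0 counts of both genes, set the ratio to at least 1.91 for mir-160 ENSRNA050003348 and at least 0.911 for MIR169g, under the rule of 2. Against foods with counts these genes had ratios of 7.85 and 6.36 there. For the miR167 family, dropping the 3 highest genes takes MIR167d out of walnut and leaves MIR167c in almond. The miR171 family stayed above every other food on each scale, with 1.40 on the deposited normalized reads and at least 3.72 on the others.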

How the data were processed

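Small RNA libraries (NEBNext kit) of 8 foods, 1 each, were analysed from a table of raw counts and a table of normalized reads on 209 peach miRNA genes. The authors removed adapters (skewer) and aligned reads 15 to 30 bases long to peach (NCBIv2) with ShortStack and miRBase 22 allowing 2 mismatches in the seed area, and counted them by strand with HTSeq-count; the deposited counts are whole numbers without normalization. The deposited normalized signal is these counts divided by 1 factor per library, which the authors made with DESeq2. It served here as an alternative scale. Its factors ran from 1.05 (almond) to 241 (apple), with 3.83 in walnut. DESeq2 run here on the same counts gave 0.535 to 1.60 by median ratio and 0.958 to 2.20 by poscounts. The deposited factors were thus not reproduced, and the reason was not tested. For these tools no version is given in the sources used here. Shares, families, intervals and calls were computed with Python 3.11.15, pandas 2.3.3 and scipy 1.17.1, and other scales with edgeR 4.0.16 (TMM) and DESeq2 1.42.0 (median ratio and poscounts). The call rule was tested on simulated libraries that shared 1 profile apart from genes raised in walnut, and the intervals on simulated counts. These tests checked the calculation and cannot show how the rule behaves among foods that differ. With 1 library per food no test across foods was possible, and no p-value was computed. Named were all genes with at least 10 walnut counts, all called genes, genes in walnut alone (0) and, chosen after their values were seen, genes at or near 0 in walnut. The genes, groups of families and rules were chosen with earlier results of these data known. No gene ID matched the almond reference table, so names are those of the count table. Total counts were 39249 in walnut and 54924 to 212021 in the other foods.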

Additional observations from a re-analysis of the deposited data

Results flagged for a closer look

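Among 22 measures compared over the 8 libraries (totals, numbers of genes, shares of the highest genes and shares of the family groups), Dixon's gap criterion set walnut apart for 2. The auxin group held 39.466% of the walnut counts and the next food was almond at 17.7%. The GRAS group (miR171) held 4.73% of the walnut counts and the next food was orange at 0.764%. Over all libraries 11 values were set apart by the criterion. Chance sets apart about 1 in 20 groups, the foods are different plants rather than replicates, and shares of this kind are skewed, so the criterion orders the values and tests nothing.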

How the results depend on the processing

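No paired analysis was possible because each food had 1 library and all carry replicate number 1. Relative to totals, the other scales moved the ratio of walnut to each food, alike for all genes. On the log2 scale this shift was -0.96 (olive) to 1.46 (almond) under TMM and -1.65 to 0.63 under DESeq2 median ratio. It was -1.96 to 0.66 under poscounts and -2.41 (almond) to 3.54 (apple) with the deposited normalized reads. A negative shift lowers walnut against that food. Genes called above (10) numbered 6 at a 5-fold rule and 10 to 14 with 1 food left out, the 14 without orange. Genes called below (1) numbered 2 under DESeq2 median ratio, without the 3 highest genes and at a rule of 1, and 1 to 3 with 1 food left out, the 3 without almond. Families called above (4) numbered 2 under DESeq2 median ratio, with the deposited reads and at a 5-fold rule, and 4 to 5 with 1 food left out. Families called below (1) numbered 0 under TMM, poscounts, without the 3 highest genes and at a 5-fold rule, 2 at a minimum of 3 counts, and 1 to 2 with 1 food left out, the 2 without almond (miR168) or spinach (miR395). Ratios to the highest other food that turned were MIR167d 0.831 and miR167 0.417 with the deposited reads and miR167 0.685 without the 3 highest genes; the ratio of miR396 to the lowest turned to 1.32 under TMM and 1.03 without the 3 highest genes. Without those genes the shares in walnut were 20.5% for auxin, 13.8% for GRAS, 10.4% for SPL, 4.98% for MYB and TCP, 18.2% for HD-ZIP III, 0.661% for GRF, 10.1% for copper and 13.1% for small RNA families. Genes detected numbered 34 at a minimum of 10 counts. The cause of these changes was not tested beyond the change of scale itself. Counts under 10 in walnut, 34 of 68 genes, give ratios too wide to order foods.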
